A study of Mus musculus with 10 samples.

Results

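Lipid-associated macrophages are macrophages that gather around fat-laden cells in obese adipose tissue and in fatty liver. Their programme is driven in part by the lipid receptor TREM2, and it includes genes for lipid uptake, for lysosomes and for secreted matrix proteins. The 10 genes described here are Gpnmb, Trem2, Cd9, Itgax, Spp1, Cd63, Fabp5, Lgals3, Mmp12 and Lpl. In whole liver none of them marks these cells alone: Spp1 is also made by bile duct cells, Itgax by dendritic cells, and Cd9, Cd63, Fabp5 and Lgals3 by many cell types. The genes were selected on their log2 differences between ethanol and control livers as well as on their known place in this programme. Their values in that comparison are therefore given as a description. Counts of genes passing in the fit over all genes are printed beside the shares over all genes, and nothing is read from them. All 10 of 10 were found among 22911 genes named on the array, through 16 probes, and all 10 were among the 15083 genes that passed the filter on dim probes.

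Livers came from male C57BL/6J mice, bought at 7 weeks of age and, after 1 week on a standard diet, all fed a 60% high-fat diet (HFD) for 4 months. In the HFD ethanol group, the drinking water held ethanol for the last 3 months, and daily intake was 5 g per kg during week 1 and 10 g per kg from then on. The HFD control group had the same diet without ethanol, and there was no group on a standard diet. Each group had 10 mice, of which 5 were picked at random for 1-colour Agilent arrays, with 1 mouse on 1 array, so n = 5 counts animals. The share of spots well above background ran from 55.5% to 59.1% per array, no spot was saturated, and the number of arrays limits the precision. All 12 hepatocyte markers checked were well above background on all 10 arrays. Of 10 adipocyte markers listed, Adipoq, Plin1 and Slc7a10 were so on none (0 arrays), and Retn on at most 3. The other 6 (Cfd, Lep, Fabp4, Cidec, Adrb3 and Plin4) were so on all 10. The arrays lay on 3 slides and in slide columns 1 to 4. Slide 1 held control mice 4 and 5 and ethanol mouse 4, slide 2 held control mice 1 and 3, and slide 3 held control mouse 2 and ethanol mice 1, 2, 3 and 5. Column 4 held control mice 1, 4 and 5, column 1 held ethanol mice 2 and 3, column 2 held control mouse 2 and ethanol mouse 5, and column 3 held control mouse 3 and ethanol mice 1 and 4.

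Because the genes varied together from mouse to mouse, the promoters of the 4 genes that form the 3 most alike pairs (Trem2 with Itgax, Gpnmb with Mmp12, Itgax with Mmp12) were taken from RefSeq (GRCm38.p6). Each sequence is the 250 bases before an annotated start, 5′ to 3′ on the plus strand, with motif matches in capitals. Mmp12, a macrophage elastase, has 2 annotated starts in that table. The windows are chr6:49036268-49036517 for Gpnmb, chr17:48346151-48346400 for Trem2, chr7:128129300-128129549 for Itgax, and chr9:7344147-7344396 and chr9:7347124-7347373 for Mmp12.
Gpnmb: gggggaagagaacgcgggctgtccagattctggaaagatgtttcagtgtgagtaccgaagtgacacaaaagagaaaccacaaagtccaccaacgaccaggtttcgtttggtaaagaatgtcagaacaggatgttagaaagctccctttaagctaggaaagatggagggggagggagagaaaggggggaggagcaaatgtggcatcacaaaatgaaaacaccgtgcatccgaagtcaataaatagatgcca
Trem2: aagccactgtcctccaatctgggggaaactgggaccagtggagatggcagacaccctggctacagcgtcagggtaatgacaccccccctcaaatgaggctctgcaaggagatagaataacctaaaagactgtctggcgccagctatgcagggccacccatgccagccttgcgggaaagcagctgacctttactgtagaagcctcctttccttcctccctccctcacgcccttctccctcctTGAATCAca
Itgax: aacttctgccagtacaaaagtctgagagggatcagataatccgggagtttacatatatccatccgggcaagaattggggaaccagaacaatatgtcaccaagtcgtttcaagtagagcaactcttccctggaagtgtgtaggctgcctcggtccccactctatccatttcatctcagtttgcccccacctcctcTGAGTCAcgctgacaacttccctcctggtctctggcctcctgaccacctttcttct
Mmp12 start 1: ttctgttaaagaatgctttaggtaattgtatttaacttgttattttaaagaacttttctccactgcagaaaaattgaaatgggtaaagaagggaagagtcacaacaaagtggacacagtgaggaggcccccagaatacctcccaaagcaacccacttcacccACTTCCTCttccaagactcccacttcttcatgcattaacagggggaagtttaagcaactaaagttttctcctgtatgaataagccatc
Mmp12 start 2: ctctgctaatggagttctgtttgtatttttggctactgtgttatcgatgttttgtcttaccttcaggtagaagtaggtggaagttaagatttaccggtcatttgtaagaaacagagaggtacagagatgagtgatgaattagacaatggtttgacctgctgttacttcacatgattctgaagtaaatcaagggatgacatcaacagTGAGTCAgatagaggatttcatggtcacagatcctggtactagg

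The motifs searched on both strands were TGANTCA, bound by AP-1 factors, GAGGAAGT, a form of the site of the macrophage factor PU.1 and its ETS relatives, and CACGTG, the E-box read by MITF and TFEB. No 2 matches overlapped. TGANTCA was found in Trem2, Itgax and the second Mmp12 window, where it began 9, 56 and 44 bases before the start. GAGGAAGT was found on the reverse strand of the first Mmp12 window, beginning 88 bases before the start, and in a window of Spp1. CACGTG was in 0 of the 10 windows of the 8 genes that the table holds. Among all 32851 windows of this length, 6.75% held TGANTCA, 2.44% held GAGGAAGT and 6.02% held CACGTG. These are matches of letters only. The Gpnmb window held none of the 3 motifs, which says only that these letters are not in those bases.

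Levels are log2 processed intensities relative to each array's 75th percentile, called log2 signal below, and they are compared between mice for 1 probe at a time. Gpnmb, a transmembrane glycoprotein of lysosomes and the cell surface that rises in lipid-loaded macrophages, had the widest range. Its log2 signal was -0.38, -3.24, -1.98, -2.27 and -0.49 in control mice 1 to 5 and -1.59, -6.38, -3.88, -5.93 and -1.97 in ethanol mice 1 to 5. Control mice 1 and 5 were highest, ethanol mice 2 and 4 were far below the rest, and ethanol mice 1 and 5 lay among the controls. The value of ethanol mouse 2 was the floor of 4 signal units, and the probe was well above background on all 5 control arrays but on only 3 ethanol arrays. Control livers averaged -1.67 ± 1.22 (SD, n = 5), and those of ethanol mice -3.95 ± 2.20 (SD, n = 5), a difference of -2.28 ± 0.99 (SE from the limma fit over all genes). No fold is given, since the value rests on the floor: with a floor of 16 signal units the difference was -1.57, and with normexp background correction it was -0.81. In whole liver, the number of cells of any type that make the RNA and the RNA per cell cannot be told apart, for this gene or any below.

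Trem2, the receptor that senses lipids and apolipoproteins on these macrophages, had log2 signals of 1.31, -0.20, -0.24, 0.53 and 0.87 in control mice 1 to 5. In ethanol mice 1 to 5 it had 0.81, -2.32, -0.94, -1.49 and 0.70. Ethanol mice 2, 3 and 4 were below every control, and ethanol mice 1 and 5 were above 3 of the 5 controls. The means were 0.45 ± 0.68 (SD) and -0.65 ± 1.37 (SD), n = 5 each, a difference of -1.10 ± 0.60 (SE).

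Itgax encodes CD11c, an integrin chain of macrophages in obese tissue and of dendritic cells. It had 0.16, -1.51, -1.41, -0.66 and -0.16 in control mice and -0.61, -2.91, -2.18, -2.37 and -0.71 in ethanol mice. The same 3 ethanol mice were below every control, and the difference of the means was -1.04 ± 0.505 (SE). A second Itgax probe was at the floor on all 10 arrays and carries no information.

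The tetraspanins Cd9 and Cd63 are membrane proteins of the cell surface and of late endosomes and exosomes. Cd63 had 4.77, 3.01, 3.00, 3.63 and 3.89 in control mice and 5.22, 1.63, 2.18, 2.32 and 5.36 in ethanol mice. Here ethanol mice 1 and 5 exceeded every control while ethanol mice 2, 3 and 4 fell below every control. The means of Cd63, 3.66 ± 0.73 (SD) in control and 3.34 ± 1.80 (SD) in ethanol mice, therefore differed by only -0.32 ± 0.77 (SE). Cd9 had 2.07, 1.22, 0.97, 1.77 and 1.65 in control and 2.09, 0.86, 1.69, 0.98 and 2.26 in ethanol mice. The groups overlapped almost fully in Cd9, with a difference of 0.04 ± 0.31 (SE).

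Of the genes of lipid handling, Fabp5, a cytosolic fatty acid binding protein, had 2.41, 1.82, 1.33, 2.38 and 2.11 in control mice. In ethanol mice it had 3.64, 1.24, 1.71, 2.27 and 4.74. Ethanol mice 1 and 5 stood above all the others, and the other three were within or just below the control range. Fabp5 was the member with the largest positive difference, 0.71 ± 0.60 (SE), and it fell to 0.20 without ethanol mouse 5. Lpl, lipoprotein lipase, which releases fatty acids from circulating triglyceride, had 1.74, 0.58, 0.62, 0.88 and 1.86 in control mice and 1.23, -0.08, 0.92, 0.30 and 1.03 in ethanol mice. Only control mice 1 and 5 exceeded all the ethanol mice, and the difference was -0.45 ± 0.33 (SE). The other 2 probes of Lpl gave -0.63 and -0.76, the dimmer of them clear of background on 4 control arrays and on 2 ethanol arrays.

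Among the secreted proteins, Spp1, osteopontin, had 4.72, 3.07, 3.12, 4.16 and 3.50 in control mice and 4.00, 1.68, 1.47, 2.10 and 3.95 in ethanol mice. Its difference was -1.08 ± 0.57 (SE), with ethanol mice 2, 3 and 4 again below every control. Lgals3, galectin-3, a lectin that binds galactosides, had 3.66, 2.42, 2.80, 2.64 and 3.64 in control and 3.21, 1.18, 1.59, 1.78 and 2.63 in ethanol mice. The difference was -0.95 ± 0.40 (SE), and the second Lgals3 probe, against another transcript, gave -0.92 with the same mice lowest and highest. Mmp12, which cuts elastin, had -0.29, -2.08, -1.85, -1.71 and -0.48 in control and -0.30, -3.10, -2.11, -2.91 and -0.74 in ethanol mice. Its difference was -0.55 ± 0.60 (SE). The 2 dimmer Mmp12 probes gave -0.46 and -0.44, were well above background on at most 2 arrays of a group, and in 1 of them ethanol mouse 3 had no usable spot.

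**Figure D1:**
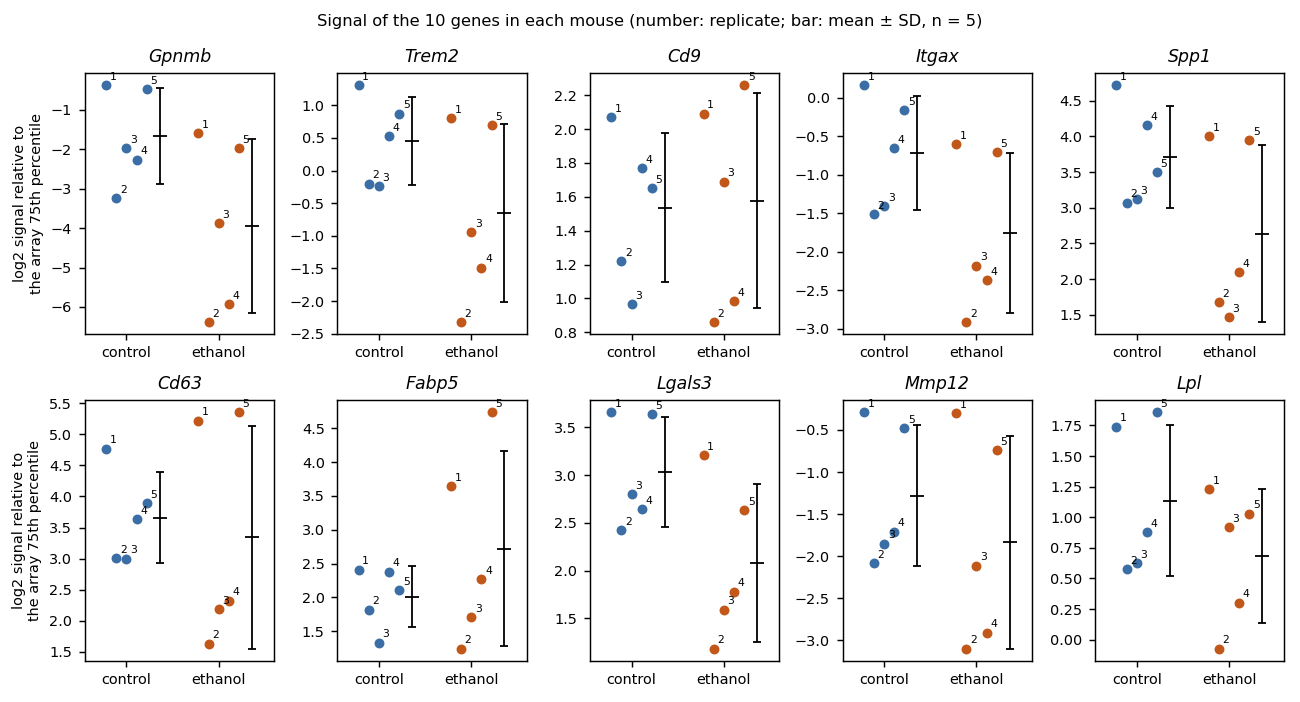
Log2 signal, scaled to the 75th percentile of each array (y axis), of each gene's brightest probe in the control and ethanol groups (x axis), with 1 numbered point per mouse and a bar for the mean ± SD of n = 5. Ethanol mice 2, 3 and 4 lie at the bottom of most panels while ethanol mice 1 and 5 lie with or above the controls, so the groups overlap for all 10 genes.

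Over the 10 genes, 8 had a lower mean with ethanol, where 42% of all 15083 genes did. The median of the 10 differences was -0.75, against 0.035 over all genes. In the limma fit 0 of 10 passed an adjusted p of 0.05, where 0.0133% of all genes did, 2 genes in number, 1 lower (0.00663%) and 1 higher (0.00663%). At an unadjusted p under 0.05, Gpnmb and Lgals3 were lower (2 of 10, where 4.97% of all genes were lower at that level) and none was higher (0 of 10, against 8.39%). The ranges of the 2 groups did not part for any gene (0 of 10), while they parted downwards for 1.02% and upwards for 2.16% of all genes. Nothing is read from these counts, since the comparison took part in choosing the genes.

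The slide and the column shared the groups unevenly, and the values changed with them. With slide as a block the differences were -2.19 for Gpnmb, -1.12 for Trem2, -0.94 for Itgax, -0.95 for Spp1 and -0.76 for Lgals3, and the median over the 10 genes was -0.65. Within slide 1, with 2 control and 1 ethanol mouse, the median was -1.59, and Gpnmb was at -4.56. Within slide 3, with 1 control and 4 ethanol mice, the median was 0.06, Gpnmb was at -0.21, Trem2 at -0.24 and Spp1 at -0.29, and 5 of the 10 genes were lower. With the slide column as a numeric covariate the median was -0.07, with Gpnmb at -1.08, Trem2 at -0.21, Itgax at -0.18, Spp1 at -0.13, Lgals3 at -0.24, Lpl at -0.00192, Mmp12 at 0.26, Cd9 at 0.37, Cd63 at 0.79 and Fabp5 at 1.49. With column and slide together the median was -0.07 as well. Within column 2, ethanol mouse 5 was higher than control mouse 2 in all 10 genes, with a median of 0.97. Within column 3, with 1 control and 2 ethanol mice, the median was 0.04. Without the 2 arrays of column 1, both of ethanol mice, the median was -0.32. Since column 4 held only control and column 1 only ethanol mice, column and treatment could largely not be told apart.

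**Figure D2:**
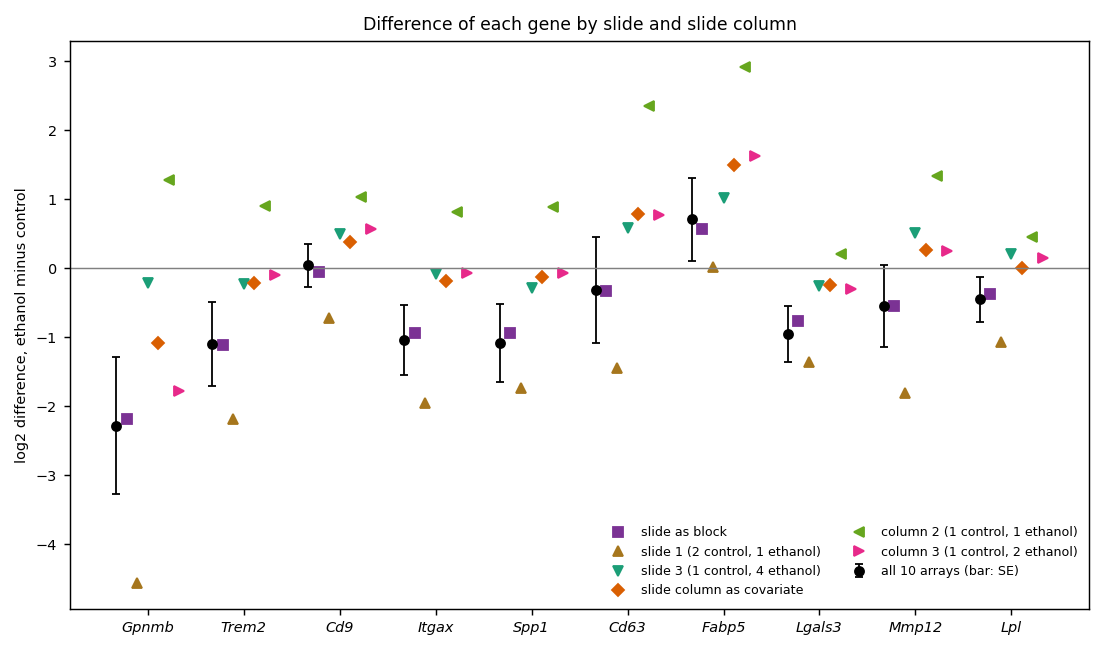
Log2 difference, ethanol minus control (y axis), of each gene (x axis) over all 10 arrays (black, bar for SE) and under the slide and slide column settings named in the key. The values within slide 1 are the lowest for every gene and those within column 2 the highest, on opposite sides of 0 for all but Fabp5.

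Single mice moved the values as well. Leaving out ethanol mouse 2 brought the median of the 10 genes to -0.48, Trem2 to -0.69 and Gpnmb to -1.67, and leaving out ethanol mouse 1 brought them to -1.08, -1.47 and -2.87. Cd63 ran from -0.83 without ethanol mouse 5 to 0.11 without ethanol mouse 2, and Mmp12 from -0.93 without ethanol mouse 1 to -0.23 without ethanol mouse 2.

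The same mice were high or low in most of the genes. Control mouse 1 and ethanol mouse 1 were among the 3 highest of the 10 mice in all 10 genes. Ethanol mouse 2 was the lowest of all in 9 of 10 genes and the second lowest in Spp1, where ethanol mouse 3 was lowest. Ethanol mouse 4 was among the 3 lowest in 9 genes and ethanol mouse 3 in 8. Other mice changed place more: control mouse 5 and ethanol mouse 5 both ranked from 1 to 6, and control mouse 3 from 4 to 9. The mean of the 10 genes, each centred on its mean over the 10 mice, was 1.18, -0.33, -0.20, 0.30 and 0.80 in control mice 1 to 5. In ethanol mice 1 to 5 it was 0.93, -1.66, -0.79, -1.13 and 0.89, so the spread within the ethanol group (SD 1.19) was wider than the difference between the group means (0.35 ± 0.65 SD in control and -0.35 in ethanol mice).

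**Figure D3:**
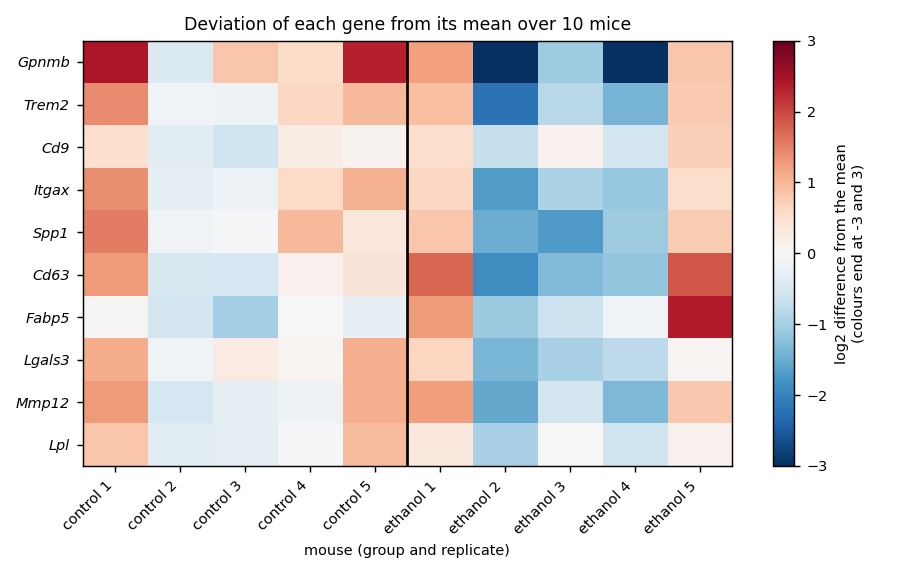
Log2 deviation (colour, red above and blue below) of each gene (rows) from its own mean over the 10 mice (columns, controls left of the line). Ethanol mouse 1 is red and ethanol mouse 2 blue in every row, and control mouse 1 is red in all rows but that of Fabp5, where it is near its mean.

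The spread among mice of 1 group comes from the same arrays as the differences that helped choose the genes, and a gene with a wide spread shows a large difference more readily, so it is given as a description. The pooled SD within groups was 1.78 for Gpnmb, larger than in 99.9% of the 15083 genes, and 1.37 for Cd63, larger than in 99.7%. The SD of Gpnmb depends on dim values, and it was 1.29 with a floor of 16, 0.68 with normexp, and 1.22 in the control mice alone, all measured, where it was larger than in 99.7% of genes. It was between 0.55 (Cd9, larger than in 92% of genes) and 1.08 (Trem2, 99.2%) in the other eight, and its median over the 10 genes was 1.04, against 0.202 over all genes. The SD was larger among ethanol than among control mice in 9 of the 10 genes, all but Lpl, where 58.5% of all genes had the larger SD with ethanol.

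After removal of the group means, Gpnmb was correlated with each of the other 9 genes over the 10 mice, with an exact two-sided permutation of the mice within groups and Benjamini-Hochberg adjustment over these 9 relations. Its closest partner was Mmp12, with a Pearson r of 0.978 (exact permutation p = 0.000208, adjusted 0.00188) and a Spearman rho of 0.988 (exact permutation p = 0.000486). Trem2 had r of 0.95 (exact permutation p = 0.00215, adjusted 0.0040) and rho of 0.939 (exact p = 0.00542), and Itgax had r of 0.935 (exact permutation p = 0.00222, adjusted 0.0040) and rho of 0.915 (exact p = 0.00292). Lgals3 had r of 0.917 and rho of 0.842 (exact p = 0.0016 and 0.00715), Cd63 0.895 and 0.83 (exact p = 0.00646 and 0.0324), Lpl 0.894 and 0.83 (exact p = 0.000486 and 0.00139) and Cd9 0.88 and 0.855 (exact p = 0.00847 and 0.0149). These 7 relations passed after adjustment, by r and by rho. The arrays are those whose differences helped choose the genes, and genes sharing a spread among mice are chosen together more readily. All p-values of these relations are therefore given as a description. The share of all genes with such a relation to Gpnmb was not counted, so the 7 are not read as particular to these genes. With the mean of the 10 genes, 6.45% of 14054 other genes had an r above 0.8. Spp1, with r of 0.772 and rho of 0.721 (exact p = 0.0508 and 0.0838, adjusted 0.0572 and 0.0838), and Fabp5, with r of 0.756 and rho of 0.758 (exact p = 0.0615 and 0.0664, adjusted 0.0615 and 0.0747), did not pass. Gpnmb was not well above background in ethanol mice 2 and 4. Without both, over 8 mice and by an alternative chosen after seeing the data, 6 of the 9 relations passed, with r from 0.827 for Cd63 to 0.972 for Mmp12 (exact permutation, adjusted p of 0.0125 to 0.025). Cd9 then had an r of 0.682 and did not pass (exact permutation, adjusted p = 0.111). Without the 2 mice farthest from the median of Gpnmb, ethanol mice 1 and 2, the r ran from 0.625 for Fabp5 to 0.966 for Mmp12. With the slide column as a covariate r ran from 0.686 for Fabp5 to 0.973 for Mmp12, and the 7 relations passed there too, as they did with slide as a block. No slide held more than 5 mice, too few for a correlation within a slide. Gpnmb was taken as the reference with these data known.

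All 45 pairs of the 10 genes had a positive r, from 0.588 for Fabp5 with Lpl to 0.981 for Trem2 with Itgax, with a median of 0.894. Against the mean of the other 9 genes, Trem2 had the highest r (0.991) and Lpl the lowest (0.836). This likeness was shared by many genes outside the list. Of 14054 other genes with a value in every mouse, 906 (6.45%) had an r above 0.8 with the mean of the 10 genes, 306 (2.18%) above 0.9, and 771 (5.49%) below -0.8. These values share the same 10 livers and arrays and are given as a description. Among the genes most like the mean were Fkbp10, a collagen chaperone of the endoplasmic reticulum (r = 0.988), Pqlc3 (0.982), Fblim1, a filamin-binding adhesion protein (0.981), Uap1l1 (0.98), Tagln2, an actin-binding protein (0.98), Emp1, a membrane protein (0.977), and Cxcl5, a neutrophil-attracting chemokine (0.976).

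**Figure D4:**
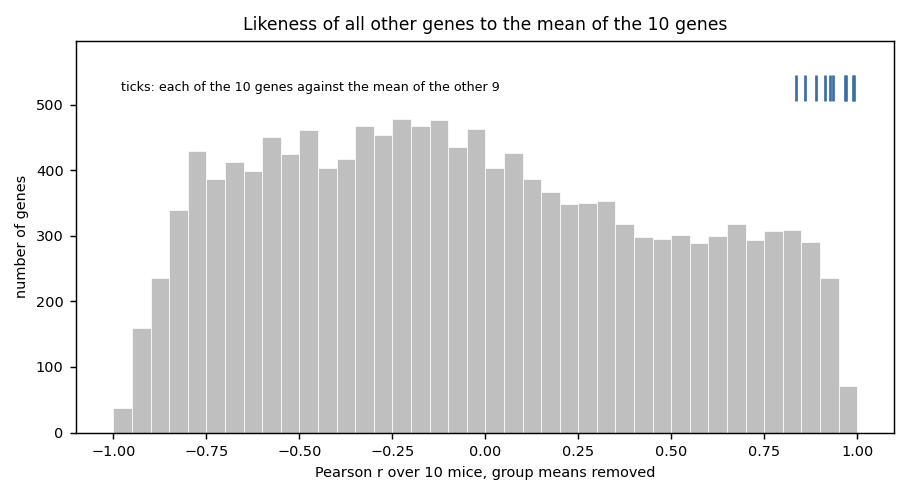
Number of genes (y axis) by Pearson r with the mean of the 10 genes (x axis) over 10 mice after removal of group means, for 14054 other genes, with blue ticks for each of the 10 genes against the mean of the other 9. The ticks lie between 0.836 and 0.991, in the right tail, where 906 other genes also exceed 0.8.

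Of 35 other genes known from lipid-associated macrophages, 31 were tested, and 18 were lower and 13 higher with ethanol, with a median difference of -0.10. None of them passed in limma (0 of 31), and at an unadjusted p under 0.05 there were 3 lower and 2 higher. Over all genes the shares at that level were 4.97% lower and 8.39% higher, and 42% were lower by any amount. These shares apply beside the counts of every list below. The median of these 31 genes turned to 0.13 with slide column as a covariate, to 0.326 within column 2 and to 0.013 without ethanol mouse 3. The smallest p values were those of Emp1, with a difference of -1.15 ± 0.34 (SE, adjusted p = 0.244 in limma), and Hvcn1, a proton channel of phagocytes, with -0.25 ± 0.09 (SE, adjusted p = 0.318 in limma). Cd68, a lysosomal glycoprotein of macrophages, had -0.25 ± 0.22 (SE), and Cd36, a fatty acid transporter, had -0.11 ± 0.20 (SE). Apoe, an apolipoprotein that hepatocytes make in bulk, had 0.03 ± 0.09 (SE). In the TREM2 pathway 10 of 13 genes were lower, with a median of -0.18 and 0 past the threshold in limma (1 lower and 1 higher at an unadjusted p under 0.05). Tyrobp, the adaptor that carries the TREM2 signal, had -0.29 ± 0.24 (SE), and Adam17, a protease that sheds TREM2 from the cell, had -0.29 ± 0.06 (SE, adjusted p = 0.173 in limma). The median of this list turned to 0.132 with slide column as a covariate and to 0.304 within column 2, and was -0.093 without ethanol mouse 2. Card9, an adaptor below SYK, was at 0.57 ± 0.22 (SE, adjusted p = 0.331 in limma). Lysosome genes and their MiT/TFE regulators had a median of 0.05 with 7 of 20 lower and 0 past the threshold (1 lower and 0 higher at an unadjusted p under 0.05). Mcoln1, a lysosomal calcium channel, had 0.13 ± 0.064 (SE). Mitf, which drives Gpnmb in pigment cells, had -0.03 ± 0.06 (SE).

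Markers of macrophages as a whole were lower in 13 of 15 genes, with a median of -0.225 and 0 past the threshold in limma or at an unadjusted p under 0.05. That median turned to 0.103 within slide 3, 0.169 with slide column as a covariate and 0.375 within column 2, and was -0.0713 without control mouse 5. Adgre1, a surface receptor of mouse macrophages, had -0.04 ± 0.24 (SE), Fcgr1, an Fc receptor, -0.49 ± 0.25 (SE) and Mpeg1, a pore-forming protein of phagocytes, -0.27 ± 0.14 (SE). The mean of the centred log2 signals of the 15 markers ran from -0.27 to 0.48 in control and from -0.58 to 0.44 in ethanol mice. After removal of the group means, it had an r of 0.878 with the mean of the 10 genes. Markers of resident Kupffer cells had a median of 0.0073, with 6 of 14 lower and 0 past the threshold (0 lower and 2 higher at an unadjusted p under 0.05). Their range was -0.28 to 0.29 in control and -0.27 to 0.30 in ethanol mice, and their r with the mean of the 10 genes was 0.344. Among them Cd163, a haemoglobin scavenger receptor, had 0.90 ± 0.18 (SE, adjusted p = 0.169 in limma), Clec4f 0.43 ± 0.16 (SE, adjusted p = 0.319 in limma) and Timd4 0.25 ± 0.24 (SE). These were all higher, while 6 of the 14 markers were lower, with the largest fall in C6 (-0.62 ± 0.31, SE). The Kupffer cell median was -0.229 within slide 1, 0.346 within slide 3 and 0.28 with slide column as a covariate. Markers of monocytes and recruited macrophages had a median of -0.43 with 10 of 14 lower, 0 past the threshold and 7 lower at an unadjusted p under 0.05 (0 higher). Over all genes 42% were lower, and at that level 4.97% were lower and 8.39% higher. Ccr2, the chemokine receptor that brings monocytes into tissue, had -1.22 ± 0.27 (SE, adjusted p = 0.173 in limma), and S100a6, a calcium-binding protein, -0.91 ± 0.24 (SE, adjusted p = 0.222 in limma, with control mouse 2 and ethanol mouse 3 without a usable spot). Cx3cr1, the fractalkine receptor, had -1.19 ± 0.41 (SE, adjusted p = 0.310 in limma). The monocyte median stayed below 0 in every slide and column setting run, nearest to 0 within slide 3 (-0.0897). The monocyte markers ran from 0.05 to 0.32 in control and from -0.49 to 0.03 in ethanol mice, with an r of 0.93.

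Other cells that make some of the 10 genes were followed in the same way, and in each of these lists 0 genes passed in limma. Dendritic cell markers, for Itgax, had a median of -0.31 with 9 of 13 lower (0 at an unadjusted p under 0.05), a range of -0.12 to 0.30 in control and -0.48 to 0.29 in ethanol mice and an r of 0.955. Their median turned to 0.0784 with slide column as a covariate and to 0.362 within column 2, and was -0.188 without ethanol mouse 2. The closest to the threshold were the antigen-presentation genes Cd74, with -0.54 ± 0.26 (SE), and H2-Eb1, with -0.57 ± 0.28 (SE). Bile duct cell markers, for Spp1, had a median of -0.255 with 9 of 10 lower (2 at an unadjusted p under 0.05), a range of -0.15 to 0.415 in control and -0.39 to 0.27 in ethanol mice and an r of 0.831. Their median was -0.0556 with slide column as a covariate and turned to 0.207 within column 2. Bicc1, an RNA-binding protein, had -0.73 ± 0.26 (SE, adjusted p = 0.310 in limma), Sox9, a factor of duct cells, -0.66 ± 0.26 (SE, adjusted p = 0.335 in limma) and Krt19, the duct keratin, -0.38 ± 0.22 (SE). Neutrophil markers had a median of -0.28 with 5 of 7 lower (2 lower and 1 higher at an unadjusted p under 0.05), and an r of 0.388, with S100a8 at -0.71 ± 0.26 (SE) and Elane, neutrophil elastase, at 0.28 ± 0.11 (SE). Stellate cell markers had -0.14 with 10 of 13 lower (4 lower and 1 higher at that level) and an r of 0.736, led by Col14a1, a collagen (-0.63 ± 0.15, SE), and Reln, reelin (-0.32 ± 0.087, SE). The stellate median turned to 0.0235 with slide column as a covariate. Endothelial markers had -0.02 with 8 of 13 lower (0 at an unadjusted p under 0.05) and an r of 0.349, with Pecam1 at 0.27 ± 0.13 (SE) and Eng at -0.16 ± 0.083 (SE). Adipocyte markers had a median of -0.44 with 4 of 6 lower (1 at an unadjusted p under 0.05, Adrb3 at -0.63 ± 0.20, SE) and an r of -0.348. The adipocyte median was -0.0801 with slide column as a covariate and turned to 0.142 within column 3.

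The mean of the hepatocyte markers ran opposite to the 10 genes from mouse to mouse, though not every marker did. It was -0.21, 0.14, 0.11, -0.05 and 0.01 in control mice 1 to 5 and -0.32, 0.26, 0.15, 0.12 and -0.24 in ethanol mice 1 to 5. Control mouse 1 and ethanol mice 1 and 5, high in the 10 genes, had the lowest hepatocyte values, and ethanol mouse 2 had the highest. After removal of the group means the r of the list mean was -0.962. Among the 9 markers with a value in every mouse, r was below 0 for 8 and below -0.7 for 5, from -0.952 for Tat, an amino acid enzyme, and -0.878 for Cyp2e1, the ethanol-oxidising cytochrome, to -0.261 for Alb, -0.108 for Ttr and 0.392 for Apoa1. The median difference between the groups was 0.0057 over 12 genes, 6 of them lower (1 at an unadjusted p under 0.05, and 0 past the threshold in limma), and it was -0.214 with slide column as a covariate. The apolipoproteins Apob and Apoa1 had -0.28 ± 0.11 (SE) and -0.21 ± 0.11 (SE). The part of hepatocyte, macrophage, duct or other cell markers in the values of the 10 genes was not tested.

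**Figure D5:**
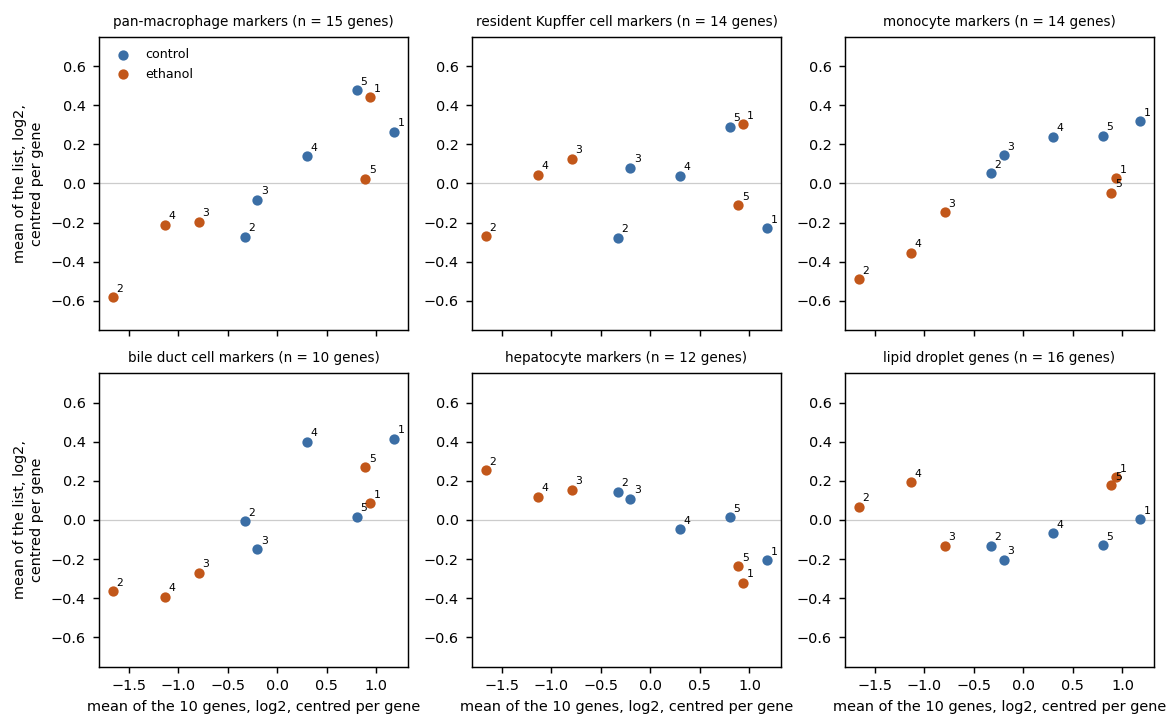
Mean of a marker list (y axis, centred log2 signal) against the mean of the 10 genes (x axis) in each of 10 mice, numbered within control (blue) and ethanol (orange), for 6 lists. The macrophage and bile duct markers broadly rise from ethanol mouse 2 at the left to the right, and hepatocyte markers fall. The monocyte markers rise within each group, with every ethanol mouse below every control. The Kupffer cell markers show a wide scatter (r of 0.344).

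Partners and relatives of single members gave the same counts of 0 past the threshold in limma. Of the lipoprotein lipase partners and regulators, 11 of 14 were higher, with a median of 0.09 (1 higher at an unadjusted p under 0.05). Apoa5, which promotes the action of the lipase, had 0.36 ± 0.12 (SE, adjusted p = 0.31 in limma), and Apoc3, which inhibits it, 0.21 ± 0.11 (SE). Fatty acid binding proteins related to Fabp5 had a median of -0.05 with 4 of 7 lower (0 at an unadjusted p under 0.05), with Fabp12 at 0.33 ± 0.18 (SE). Fabp4, its macrophage and adipocyte relative, had 2.94, 2.25, 2.06, 2.71 and 2.83 in control mice and 2.85, 1.12, 1.08, 1.98 and 2.77 in ethanol mice, with ethanol mice 2, 3 and 4 below every control. The difference of Fabp4 was -0.60 ± 0.37 (SE). Other tetraspanins had a median of 0.0067 with 8 of 17 lower (1 lower and 3 higher at an unadjusted p under 0.05), with Tspan13 at -0.52 ± 0.20 (SE) and Cd82 at 0.17 ± 0.067 (SE). Osteopontin receptors had a median of -0.14 with 7 of 9 lower (3 at an unadjusted p under 0.05), led by the integrin chains Itga8 (-0.51 ± 0.13, SE, adjusted p = 0.190 in limma) and Itga4 (-0.65 ± 0.23, SE, adjusted p = 0.313 in limma), while Cd44 had -0.43 ± 0.22 (SE). Galectins other than Lgals3 had a median of -0.0052 with 3 of 6 lower (0 at an unadjusted p under 0.05), with Lgals9 at 0.23 ± 0.14 (SE) and Lgals8 at 0.05 ± 0.074 (SE). The other beta2 integrin chains had -0.31 with 3 of 3 lower (0 at that level), among them Itgam, which encodes CD11b, at -0.40 ± 0.21 (SE), and their common chain Itgb2 at -0.31 ± 0.26 (SE), and this median turned to 0.105 within column 2. Matrix genes around Mmp12 had a median of -0.205 with 6 of 11 lower (3 at that level), and the inhibitors Timp2 and Timp1 had -0.63 ± 0.14 (SE, adjusted p = 0.187 in limma) and -0.30 ± 0.07 (SE, adjusted p = 0.193 in limma). Both parted the groups downwards, where 1.02% of all genes did. So did Ccr2, S100a6, Adam17 and Col14a1 among the genes named above.

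Lipid droplet genes went the other way from most of the 10 genes, with 13 of 16 higher, a median of 0.16, 0 past the threshold in limma and 3 higher at an unadjusted p under 0.05. Cidea, a protein that fuses droplets, had 5.69, 5.33, 5.58, 5.58 and 5.64 in control mice and 7.25, 6.70, 5.86, 7.16 and 7.07 in ethanol mice, with no overlap. Its difference was 1.24 ± 0.24 (SE, adjusted p = 0.151 in limma). The groups parted upwards for 3 of the 16 genes, where 2.16% of all genes did. Dgat1, which makes triglyceride, had 0.40 ± 0.09 (SE, adjusted p = 0.189 in limma). Plin2, the main droplet coat protein of fatty liver, had 0.30 ± 0.19 (SE), with control mouse 2 and ethanol mouse 1 without a usable spot. The list's mean had an r of 0.53 with the mean of the 10 genes.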

How the data were processed

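RNA of 10 livers, 1 mouse and 1 array each, was labelled with Cy3. The authors' deposited scanner tables hold processed intensity per spot, background-corrected by Agilent Feature Extraction 10.7.3.1 per the file headers, which name an array design on build mm9. The authors also deposited a log2 value table. Each of its columns matched the scanner values scaled to the 75th percentile (r = 1 over 13963 bright probes), its column medians ran from -0.123 to 0.0798, and the centring of its probes is unknown but cancels in differences.

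Processed intensities, with outlier-flagged spots masked, were scaled to the 75th percentile of their array, floored at 4 signal units, put on a log2 scale and averaged per probe. Probes needed a signal well above background on 4 of the 5 arrays of either group, and the brightest kept probe stood for its gene. Names came from accessions through the RefSeq gene table (GRCm38.p6): 32994 of 56605 probes had 1 symbol and 23611 stayed unnamed. The comparison used limma 3.58.1 (R 4.3.3), with Benjamini-Hochberg adjustment over 15083 genes and a threshold of 0.05. The SEs are those of this fit, which was tested on simulated data. Correlations were exact permutation tests within groups. In settings with a covariate or block the values permuted were residuals, so those p-values are approximate.

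The 10 genes and the 21 lists set beside them were chosen with earlier results of these data known. From each list the text names the 2 genes with the largest absolute moderated t, plus a fixed set of defining markers, and beside the lists the 8 genes most like the mean of the 10. Some genes that this rule names are not reported here. Replicate numbers did not pair the mice: same-numbered mice correlated at -0.102 to 0.325, and 1 of 5 matched its own number best. Protein and probe sequences, and promoters of Fabp5 and Lpl, were not used here. Alternatives covered scaling, background correction, floor, filter, probe choice, slide, column, replicate block, variance model and each array left out.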

Additional observations from a re-analysis of the deposited data

How the results depend on the processing

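The number of genes past the threshold over all genes was 2, and it became 5 with normexp (on median signals, as mean signals were not used here), 4 with a floor of 16, 9 with slide as a random block, 8 with a trend in the variance model and 14 with array weights. It was 0 with no filter on dim probes, with a fixed slide block, on the arrays of slide 1 or of slide 3 alone, with slide column as a covariate or factor, within column 3, with slide and column together and with the replicate block, which left the 10 differences as they were. Leaving out 1 array gave 0 to 8. Within column 2, with 1 mouse a group, there is no test. The median of the 10 genes turned to 0.0585 within slide 3, 0.333 with column as a factor, 0.968 within column 2 and 0.0359 within column 3, and ran from -1.08 to -0.475 when 1 array was left out. Lpl turned to 0.201, 0.277, 0.455 and 0.144 in those settings. With column as a factor Trem2 was at 0.327, Itgax at 0.303 and Spp1 at 0.339. Within column 2 Gpnmb was at 1.27, Trem2 at 0.90, Itgax at 0.807, Spp1 at 0.888 and Lgals3 at 0.212. The cause was not tested. The r of Gpnmb with Spp1 and with Fabp5 passed at 0.791 and 0.776 with quantile normalization, 0.738 and 0.656 with normexp, 0.80 and 0.711 with a floor of 16, and 0.773 and 0.788 with slide as a block. Both also passed without control mouse 4, in a range of 0.685 to 0.876 for Spp1 and 0.654 to 0.822 for Fabp5 over arrays left out. The r with Cd9 missed the threshold in 2 alternatives chosen after seeing the data, without the arrays of column 1 (0.835) and without ethanol mice 2 and 4 (0.682), and without ethanol mouse 3, in a range of 0.833 to 0.937. The medians of several marker lists turned in slide or column settings too. Signal over background limits Gpnmb, measured on 3 of 5 ethanol arrays.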
